A study of Mus musculus with 15 samples.

Results

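IL-4 and IL-13 act on macrophages through a small set of surface chains and kinases. Followed here were 10 genes, namely the ligand gene Il4, the receptor chains Il4ra, Il13ra1, Il13ra2 and Il2rg, and the kinases Jak1, Jak2, Jak3 and Tyk2. The last of the 10 was Il21r, a chain of the receptor for IL-21. They were taken by name from the 53465 genes in the deposited count matrix. Of these 10 genes, 9 passed the filter on low counts and were among the 13938 genes tested. The exception was Il13ra2, with 0 counts in all 15 libraries.

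The type I receptor for IL-4 is made of IL-4Rα, the product of Il4ra, and the common gamma chain, the product of Il2rg. The type II receptor pairs IL-4Rα with the product of Il13ra1 and binds IL-4 as well as IL-13. IL-13Rα2 binds IL-13 without a signalling tail of the usual kind and is known mainly as a decoy. JAK1 sits on IL-4Rα, JAK3 on the common gamma chain, and TYK2 or JAK2 on IL-13Rα1. Together they phosphorylate STAT6, the factor that switches on the alternative (M2) program of macrophages.

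Bone marrow-derived macrophages (BMDMs) are macrophages grown from bone marrow in the presence of M-CSF. Here mouse marrow was cultured for 7 days with 20 ng/ml M-CSF in every group, and the methods of the study give the age of the mice that donated its marrow as 8 to 12 weeks. The control group (CTR in the plots) received no further cytokine. The IL-4 group (IL4) received IL-4 at 10 ng/ml, the IL-4/IL-6 group (IL4-IL6) the same IL-4 with IL-6 at 40 ng/ml, the IL-13 group (IL13) IL-13 at 40 ng/ml, and the IL-13/IL-6 group (IL6-IL13) the same IL-13 with IL-6 at 40 ng/ml, each for 24 h. Each group had 3 RNAseq libraries. The study included no group with IL-6 alone in its RNAseq, so each IL-6 comparison was made on top of IL-4 or IL-13. These comparisons give the difference made by adding IL-6. They cannot separate an action of IL-6 of its own from a change in the response to IL-4 or IL-13.

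The summed counts were between 17001352 and 18918686 per library. IL-4/IL-6 replicate 2 and IL-13 replicate 1 stood apart from the other libraries of their groups, and the biological coefficient of variation was 14.8% in IL-4/IL-6 and 10.9% in IL-13 against 4.48% in control. All 8 markers of a macrophage list were present in every group, with a sum between 10900 and 21114 CPM (counts scaled to the size of the library) that was led by Lyz2. Markers of other cells of the marrow were higher in control. Those of granulocytes and their precursors summed to between 460.2 and 547 CPM in control and to between 0.979 and 2.14 CPM in the treated libraries. Markers of basophils, mast cells and eosinophils summed to between 26.2 and 27.5 CPM in control and to at most 2.19 CPM in the treated libraries. For T cells the sum was between 25.4 and 30.5 CPM in control, nearly all of it Cd4, while Cd3e had 0 counts in every library. Sums for B cells, dendritic cells and stromal cells were also highest in control. Every comparison with control therefore also compares cultures that differ in these markers, and their part in the member values was not tested. In the comparisons of IL-6 added to IL-4 or IL-13, these lists of other cells were at 2.19 CPM or below on both sides, and the macrophage sum was between 14308 and 14780 CPM in IL-4 and between 10900 and 12704 CPM where IL-6 was added to it. It went from between 17051 and 19800 CPM in IL-13 to between 13928 and 14820 CPM with IL-6. Lyz2 leads these sums, and of the 8 macrophage markers 3 were higher and 5 lower with IL-6 on top of IL-4, and 3 higher and 2 lower on top of IL-13. The part of these shifts in the member values was not tested.

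**Figure D1:**
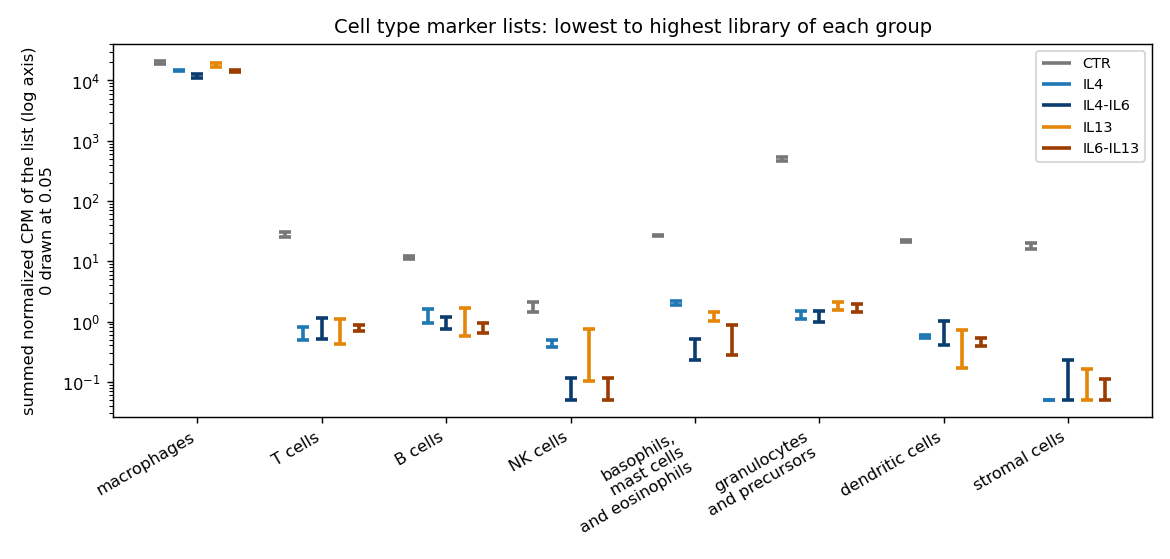
Summed normalized CPM (log axis, with 0 drawn at 0.05) of 8 cell type marker lists, with a bar from the lowest to the highest of the 3 libraries in each group. The macrophage list was between 10900 and 21114 CPM in all 5 groups, and every other list was highest in control.

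The gene of the ligand, Il4, was low but detected in every library. Its normalized CPM (scaled with TMM factors) was 5.47, 2.94 and 3.42 in control, 1.34, 1.33 and 1.58 in IL-4, and 1.71, 1.97 and 1.65 in IL-13. With IL-6 added it was 9.47, 9.66 and 7.20 in IL-4/IL-6 and 6.88, 8.41 and 8.96 in IL-13/IL-6. The libraries with IL-6 did not overlap with those of any other group, and the raw counts behind these values were between 24 and 167. In the quasi-likelihood F-test of edgeR, with p-values adjusted over all 13938 genes by Benjamini-Hochberg, Il4 fell by 1.48 ± 0.24 on the log2 scale (standard error) in IL-4 over control (adjusted p = 4.41e-05) and by 1.15 ± 0.23 in IL-13 over control (adjusted p = 0.000413). It rose 6.17-fold in IL-4/IL-6 against IL-4 (adjusted p = 5.19e-08) and 4.54-fold in IL-13/IL-6 over IL-13 (adjusted p = 6.25e-07). The summed markers of basophils, mast cells and eosinophils, which are known sources of IL-4, fell together with Il4 between control and IL-4, from at least 26.2 CPM to at most 2.19 CPM. With IL-6 added to IL-4 the sum was between 0.23 and 0.51 CPM, and this difference lay in Gata2 (1.83 ± 0.30 CPM in IL-4 against 0.21 ± 0.06, SD, n = 3), the 1 marker called of 7 tested. Mcpt8, Fcer1a and Epx had 0 counts in all libraries of both groups. The part of these cells in the values of Il4 was not tested. In bulk RNA, fewer cells of a type and less RNA per cell cannot be told apart.

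Il4ra, which encodes the chain shared by both receptor types, was lowered by either cytokine alone and raised far above control when IL-6 was present. Its normalized CPM was 87.4, 91.3 and 92.2 in control, 37.5, 35.5 and 34.1 in IL-4, and 49.6, 51.6 and 51.7 in IL-13. In the libraries with IL-6 it was 2552, 2048 and 2336 in IL-4/IL-6 and 1528, 1548 and 1613 in IL-13/IL-6. All 5 groups were separate from one another, in the order IL-4/IL-6, IL-13/IL-6, control, IL-13 and IL-4. Over control, Il4ra fell by 1.34 ± 0.07 (log2) in IL-4 (edgeR quasi-likelihood test, adjusted p = 7.13e-11) and by 0.82 ± 0.07 in IL-13 (adjusted p = 4.14e-08). Adding IL-6 raised it 64.8-fold over IL-4, a log2 fold change of 6.02 ± 0.09 (adjusted p = 4.58e-18), and 30.7-fold over IL-13, a log2 fold change of 4.94 ± 0.08 (adjusted p = 5.06e-17). Among the 13938 tested genes, the first was the 22nd largest rise and the latter the 14th largest. Against control, it was 25.6-fold higher in IL-4/IL-6 and 17.3-fold higher in IL-13/IL-6.

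On the FPKM scale, which divides by gene length and so allows genes to be set side by side, Il4ra went from 15.7 ± 0.41 (SD, n = 3) in control to 6.01 ± 0.30 in IL-4, and reached 365 ± 52.5 with IL-4/IL-6. It was 8.71 ± 0.30 in IL-13 and 254 ± 6.97 in IL-13/IL-6. By mean FPKM it ranked 3175th of 22093 detected genes in control, 129th of 19769 in IL-4/IL-6 and 187th of 19936 in IL-13/IL-6. The gene took 0.218% of all counts in IL-4/IL-6 and 0.00361% in IL-4. An antisense gene that overlaps Il4ra, Gm44876, had at most 13 counts in a library.

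**Figure D2:**
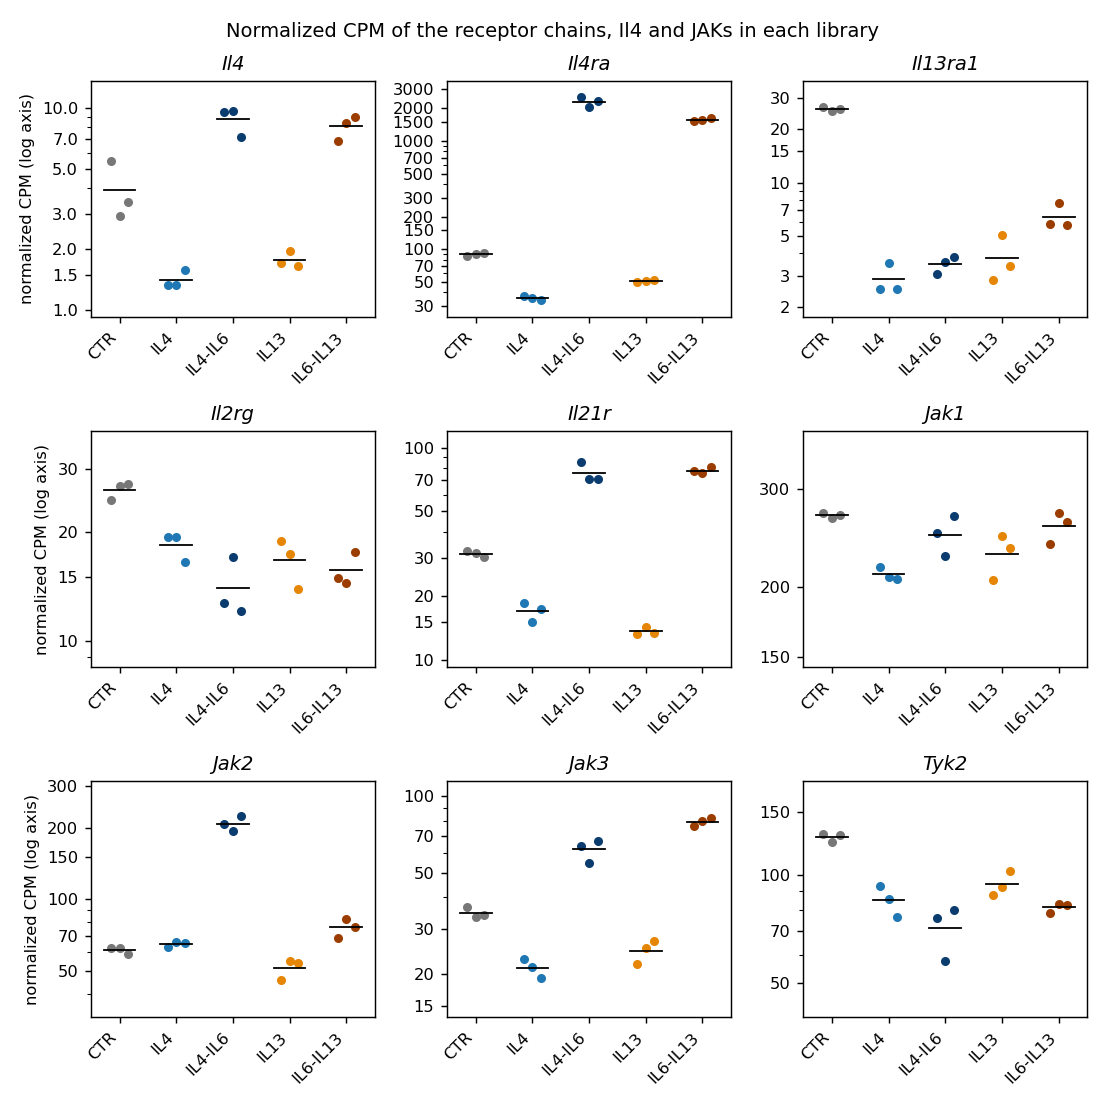
Normalized CPM (log axis, a scale of its own for each gene) of the 9 detected genes in each of the 15 libraries, with points for libraries and a line for the mean of the 3 libraries in a group. Il4ra, Il21r, Il4, Jak2 and Jak3 were highest in both groups with IL-6, and Il13ra1, Il2rg and Tyk2 were highest in control.

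Il13ra1, the partner chain in the type II receptor, showed the largest fall of the 9 genes under IL-4 or IL-13 alone. A rise with IL-6 passed the test only on top of IL-13. Its normalized CPM was 26.6, 25.4 and 25.8 in control, 2.52, 3.54 and 2.51 in IL-4, and 2.84, 5.07 and 3.40 in IL-13. It was 3.06, 3.59 and 3.80 in IL-4/IL-6 and 5.84, 7.70 and 5.79 in IL-13/IL-6. Control was separate from all treated libraries, and IL-13/IL-6 lay above the other treated groups, whose ranges overlapped. Over control, Il13ra1 was 9.07-fold lower in IL-4, 6.90-fold lower in IL-13, 7.43-fold lower in IL-4/IL-6 and 4.02-fold lower in IL-13/IL-6 (edgeR quasi-likelihood test, adjusted p between 1.31e-10 and 1.54e-08). IL-6 raised it 1.72-fold on top of IL-13 (adjusted p = 0.00542). On top of IL-4 the log2 difference was 0.29 ± 0.21 and did not pass the test (adjusted p = 0.314), and the difference between these responses to IL-6 did not pass either (0.49 ± 0.29, adjusted p = 0.417).

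Il13ra2, the decoy chain for IL-13, had no count in any library, including those treated with IL-13. A floor of 3 counts corresponds to between 0.159 and 0.176 CPM at these depths, so a level below that was not detectable, for counting error only.

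Il2rg, which encodes the common gamma chain, fell by less than Il13ra1 over control in all 4 treated groups. Its normalized CPM was 24.5, 26.9 and 27.3 in control, 19.4, 19.4 and 16.5 in IL-4, 18.9, 17.4 and 13.9 in IL-13, 12.8, 17.1 and 12.1 in IL-4/IL-6, and 14.98, 14.5 and 17.6 in IL-13/IL-6. Control was separate from IL-4, the next group, and the ranges of neighbouring treated groups overlapped. Il2rg fell by 0.51 ± 0.13 (log2) in IL-4 and by 0.65 ± 0.13 in IL-13 over control (edgeR quasi-likelihood test, adjusted p = 0.00286 and 0.000502). With IL-6 the difference from IL-4 was −0.40 ± 0.14 (adjusted p = 0.0300), a call that was lost when IL-4 replicate 1 or 2 or IL-4/IL-6 replicate 1 or 3 was left out (log2 differences of −0.38, −0.39, −0.36 and −0.32). The difference from IL-13 was −0.09 ± 0.14 and did not pass (adjusted p = 0.6995).

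Over control, IL-4 lowered Il13ra1 9.07-fold and Il2rg 1.42-fold. The FPKM ratio of Il2rg to Il13ra1, the partner chains of IL-4Rα in the type I and type II receptors, differed between groups. It was 1.43, 1.65 and 1.64 in control, 11.98, 8.504 and 10.2 in IL-4, and 10.4, 5.34 and 6.36 in IL-13. It was 6.48, 7.39 and 4.95 in IL-4/IL-6 and 3.99, 2.92 and 4.74 in IL-13/IL-6. All treated libraries were above the control libraries, and with IL-6 the ratio was lower than with the same cytokine alone in every library. A two-sided exact permutation test gave p = 0.1 for each of these 6 comparisons, the smallest value that 3 libraries against 3 allow, and p = 0.3 for IL-13 against IL-4, where the ranges overlapped (Benjamini-Hochberg adjusted p = 0.117 and 0.300 over 7 comparisons). The FPKM ratio of Il4ra to Il13ra1 was 2.16 ± 0.11 (SD, n = 3) in control, 7.93 ± 1.56 in IL-4, 8.84 ± 2.31 in IL-13, 416 ± 87.3 in IL-4/IL-6 and 153 ± 25.3 in IL-13/IL-6. The ratio of Il4ra to Il2rg was 1.37 ± 0.04 in control and 0.77 ± 0.05 in IL-4, so Il2rg exceeded Il4ra in IL-4. It was 1.23 ± 0.22 in IL-13, where Il4ra exceeded Il2rg in all 3 libraries, and 68.0 ± 17.7 in IL-4/IL-6 and 39.8 ± 3.13 in IL-13/IL-6.

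**Figure D3:**
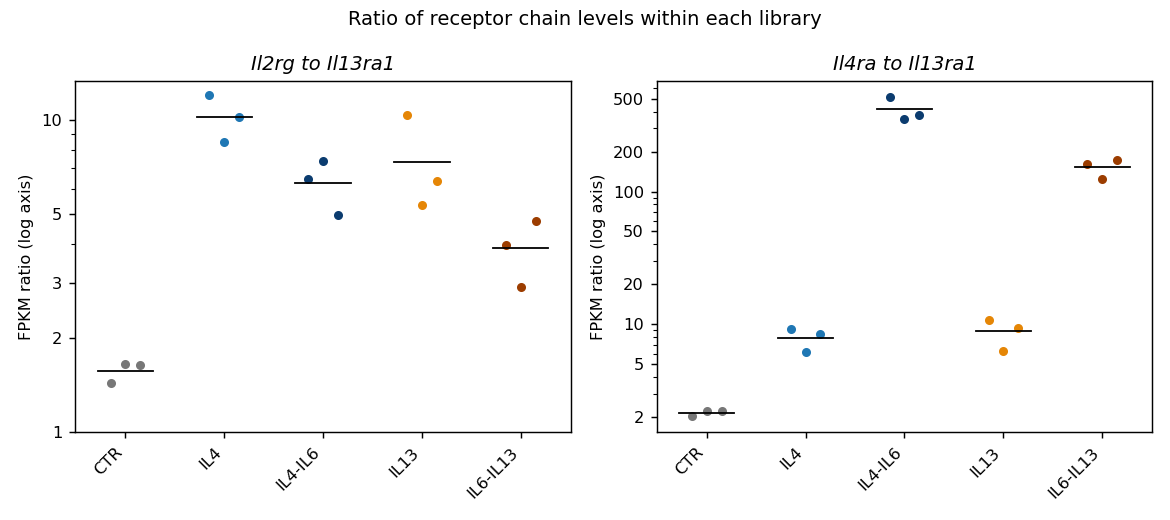
FPKM ratios (log axes) of Il2rg to Il13ra1 and of Il4ra to Il13ra1 in each library, with points for the 3 libraries of a group and a line for their mean. The first ratio was between 1.43 and 1.65 in control and at least 2.92 in every treated library, and the latter was above 124 in every library with IL-6 and at most 10.8 in the others.

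Il21r encodes the chain that binds IL-21 together with the common gamma chain and lies next to Il4ra in the genome. Its normalized CPM was 32.4, 31.8 and 30.5 in control, 18.6, 15.1 and 17.4 in IL-4, and 13.2, 14.2 and 13.4 in IL-13. With IL-6 it was 85.4, 71.4 and 70.8 in IL-4/IL-6 and 77.5, 75.6 and 80.6 in IL-13/IL-6. The groups with IL-6 overlapped with each other and lay above all other libraries. Il21r fell by 0.89 ± 0.09 (log2) in IL-4 and by 1.21 ± 0.09 in IL-13 over control, and rose 4.46-fold in IL-4/IL-6 against IL-4 and 5.73-fold in IL-13/IL-6 over IL-13 (edgeR quasi-likelihood test, adjusted p between 2.29e-12 and 1.78e-07 for all 4). In GRCm38 coordinates of GENCODE M21, Il4ra is at chr7:125552120-125579474 and Il21r at chr7:125603429-125633570, both on the plus strand, with 23954 bases and 0 annotated genes between them.

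The sequences before the starts of the members that rose more than 2-fold with IL-6 on top of both cytokines, Il4ra, Il21r, Il4 and Jak3, were read from the RefSeq promoter windows of GRCm38.p6, in which all 10 members were found, in 11 windows. They are shown as the regions next to the starts of these rising genes, a choice made after the values were seen. STAT factors are known to bind palindromic sites, so TTCNNNGAA and TTCNNNNGAA, which read the same on both strands, were searched in the 250 bases before each start. Of all 32851 windows, 7.02% held the first and 5.85% the latter. Of the 11 windows of the members, 1 held a match, a TTCNNNNGAA that starts 167 bases before the upstream start of Il4 and is in capitals. A match is a description of the letters and not a site of binding. Only the bases before the GENCODE M21 gene start are shown, 5′ to 3′ on the strand of the gene, which leaves 99 bases for Il4ra (chr7:125552021-125552119, plus strand), 250 for Il21r (chr7:125603179-125603428, plus strand), 246 for Il4 (chr11:53618670-53618915, minus strand) and 163 for Jak3 (chr8:71676133-71676295, plus strand).
Il4ra: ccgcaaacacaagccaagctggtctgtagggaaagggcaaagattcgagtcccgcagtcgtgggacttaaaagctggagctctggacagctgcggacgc
Il21r: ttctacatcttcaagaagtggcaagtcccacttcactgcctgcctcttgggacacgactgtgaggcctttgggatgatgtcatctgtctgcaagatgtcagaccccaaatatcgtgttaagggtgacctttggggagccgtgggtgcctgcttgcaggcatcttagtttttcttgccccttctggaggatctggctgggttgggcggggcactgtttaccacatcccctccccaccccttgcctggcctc
Il4: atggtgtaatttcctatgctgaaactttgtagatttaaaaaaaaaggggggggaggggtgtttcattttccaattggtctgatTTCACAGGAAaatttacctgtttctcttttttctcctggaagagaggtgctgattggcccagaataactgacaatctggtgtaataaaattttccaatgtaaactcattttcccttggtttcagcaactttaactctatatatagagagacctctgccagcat
Jak3: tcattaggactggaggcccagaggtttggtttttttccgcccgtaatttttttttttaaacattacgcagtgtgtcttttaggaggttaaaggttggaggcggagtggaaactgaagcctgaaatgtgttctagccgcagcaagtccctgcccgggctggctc

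Of the kinases, Jak1, which serves IL-4Rα, was the most abundant in every group but IL-4/IL-6 and the member with the smallest range of change. Its FPKM was 38.8 ± 0.73 (SD, n = 3) in control, 29.5 ± 0.82 in IL-4, 32.5 ± 4.03 in IL-4/IL-6, 32.5 ± 3.33 in IL-13 and 34.8 ± 2.55 in IL-13/IL-6. On this scale the control libraries (38.0 to 39.4) were above all others (at most 37.1), whereas in normalized CPM the ranges of neighbouring groups overlapped, control included. Jak1 fell by 0.35 ± 0.08 (log2) in IL-4 over control (edgeR quasi-likelihood test, adjusted p = 0.000594). The fall of 0.23 ± 0.08 in IL-13 over control (adjusted p = 0.0139) was lost without IL-13 replicate 1 (a fall of 0.13) and with no filter on low counts (a fall of 0.17). The rise of 0.24 ± 0.08 in IL-4/IL-6 against IL-4 (adjusted p = 0.0198) was lost under 7 of 21 alternatives, among them the omission of any of the 3 IL-4 libraries or of IL-4/IL-6 replicate 1 or 3 (0.16 to 0.24) and upper-quartile scaling (0.15). In IL-13/IL-6 over IL-13 the difference was 0.17 ± 0.08 (adjusted p = 0.119).

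Jak2, a kinase of IL-13Rα1 and of many other cytokine receptors, was the member whose response to IL-6 depended most on the partner cytokine, together with Il4ra. Its normalized CPM was 62.7, 62.3 and 59.3 in control, 63.1, 66.5 and 65.4 in IL-4, and 45.8, 55.2 and 54.3 in IL-13. It was 206, 193 and 223 in IL-4/IL-6 and 68.9, 83.0 and 76.9 in IL-13/IL-6. IL-4/IL-6 stood far above the other groups, and IL-13/IL-6 lay above all libraries without IL-6. Jak2 rose 3.19-fold in IL-4/IL-6 against IL-4 (edgeR quasi-likelihood test, adjusted p = 4.42e-11) and 1.47-fold in IL-13/IL-6 over IL-13 (adjusted p = 6.64e-05). The difference in IL-4 over control was 0.08 ± 0.08 (log2) and did not pass (adjusted p = 0.399), but it passed at 0.12 in a fit of the compared groups only. The fall of 0.25 ± 0.08 in IL-13 over control (adjusted p = 0.0189) was lost under 9 of 21 alternatives. Without IL-13 replicate 1, the lowest library, it was a fall of 0.13, and the other losses (0.19 to 0.23) came with no filter on low counts and without control replicate 1 or 2, any of the 3 IL-4 libraries, IL-4/IL-6 replicate 1 or IL-13/IL-6 replicate 3.

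Jak3, the kinase of the common gamma chain, rose with IL-6, in contrast to Il2rg. Its normalized CPM was 36.6, 33.4 and 34.0 in control, 23.0, 21.3 and 19.3 in IL-4, and 21.9, 25.3 and 26.9 in IL-13. With IL-6 it was 63.9, 54.9 and 66.6 in IL-4/IL-6 and 76.7, 79.6 and 81.8 in IL-13/IL-6. The groups with IL-6 were separate from each other and above control, and IL-4 and IL-13 overlapped below control. Jak3 fell by 0.71 ± 0.10 (log2) in IL-4 and by 0.49 ± 0.09 in IL-13 over control (edgeR quasi-likelihood test, adjusted p = 4.76e-06 and 0.000253). It rose 2.91-fold in IL-4/IL-6 against IL-4 (adjusted p = 5.82e-10) and 3.22-fold in IL-13/IL-6 over IL-13 (adjusted p = 2.96e-10). Insl3, which overlaps Jak3 on the same strand, had at most 30 counts in a library.

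Tyk2, the other kinase that serves IL-13Rα1, was highest in control, with a normalized CPM of 130, 123 and 129. It was 93.2, 85.9 and 76.6 in IL-4, 87.9, 92.6 and 102 in IL-13, 75.8, 57.5 and 79.9 in IL-4/IL-6, and 78.3, 82.9 and 82.4 in IL-13/IL-6. Control was separate from the rest, and neighbouring treated groups overlapped. Tyk2 fell by 0.58 ± 0.10 (log2) in IL-4 and by 0.44 ± 0.10 in IL-13 over control (edgeR quasi-likelihood test, adjusted p = 8.01e-05 and 0.00129). The differences with IL-6 were −0.26 ± 0.10 over IL-4 (adjusted p = 0.0522) and −0.21 ± 0.10 over IL-13 (adjusted p = 0.145). The first of these passed the test under 9 of 21 alternatives, with values between −0.26 and −0.37, among them the omission of IL-4 replicate 3, IL-4/IL-6 replicate 1 or 3 or IL-13 replicate 1 or 3. The latter passed without IL-4/IL-6 replicate 2 (−0.23).

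Counted together, 8 of the 9 tested members fell and 0 rose in IL-4 over control, where 35.9% of all 13938 tested genes were called lower and 32.1% higher. In IL-13 over control 9 fell and 0 rose, against 31.1% of all tested genes lower and 29% higher. The median log2 fold change of the members was −0.71 in IL-4 and −0.65 in IL-13, and that of all tested genes −0.05 and −0.02. When IL-6 was added to IL-4, 6 members rose (Il4ra, Il4, Il21r, Jak2, Jak3 and Jak1) and 1 fell (Il2rg), against 20.7% of all tested genes higher and 18.7% lower, with a median of 1.54 in the members and 0.04 in all tested genes. With upper-quartile factors, the calls of all genes in this comparison were 2073 higher and 3245 lower in place of 2885 and 2603. When IL-6 was added to IL-13, 6 members rose (Il4ra, Il21r, Il4, Jak3, Il13ra1 and Jak2) and 0 fell, against 12.1% of all tested genes higher and 13.5% lower, with a median of 0.78 in the members and 0.01 in all tested genes. Over control, Il4ra, Il21r, Il4, Jak2 and Jak3 were higher and Il13ra1, Il2rg and Tyk2 lower in both groups with IL-6. The share of all tested genes was 35.4% higher and 37.5% lower in IL-4/IL-6 over control, and 31.9% higher and 32.1% lower in IL-13/IL-6 over control. Over the 21 alternatives, between 5 and 8 members were called with IL-6 on top of IL-4. On top of IL-13 the number was between 6 and 7. Without IL-4/IL-6 replicate 2, 7 members were called with IL-6 on top of IL-4 and 7 with IL-6 on top of IL-13. Without IL-13 replicate 1 these numbers were 8 and 6, and 7 members were called in IL-13 over control. These comparisons share their control, IL-4 or IL-13 libraries, so their counts are not independent of each other. The members were chosen with earlier results of these data known, so their counts and medians beside those of all genes are a description.

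**Figure D4:**
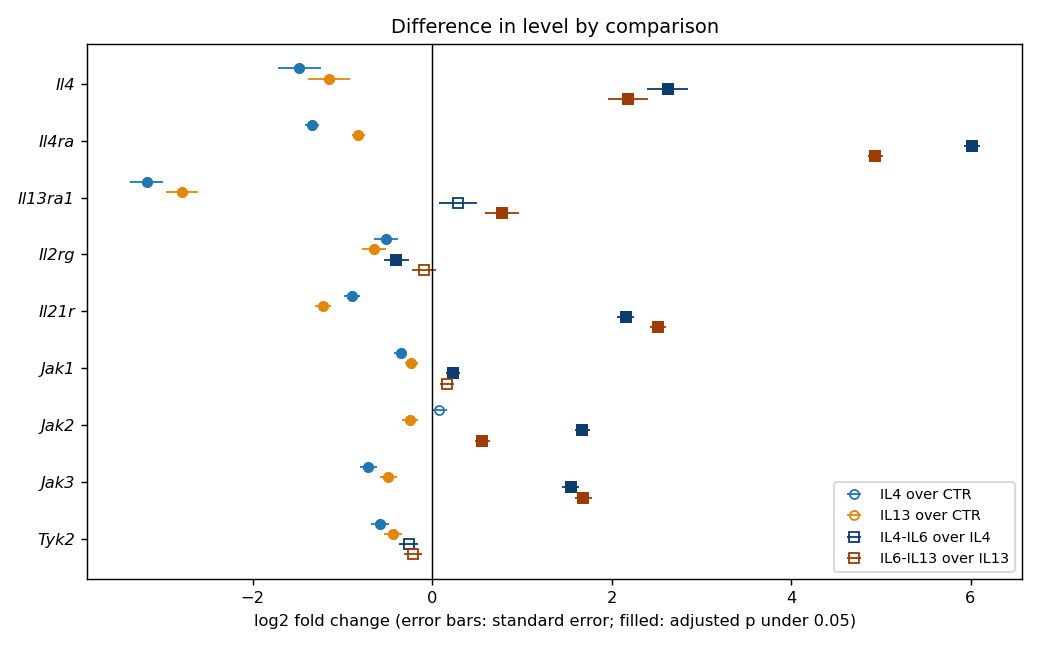
Log2 fold change with its standard error for the 9 tested genes in 4 comparisons, with filled symbols for an adjusted p under 0.05. Circles for IL-4 and IL-13 over control lie at or below 0 except Jak2 in IL-4 (0.08), and squares for IL-6 on top of either cytokine reach 6.02 for Il4ra.

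IL-13 at 40 ng/ml and IL-4 at 10 ng/ml differ in dose as well as in cytokine, so their direct comparison does not separate the cytokine from its dose. In it, 1 member was higher in IL-13 (Il4ra, 0.52 ± 0.07 on the log2 scale, edgeR quasi-likelihood test, adjusted p = 0.000130) and 2 were lower (Il21r, −0.32 ± 0.10, adjusted p = 0.0344, and Jak2, −0.33 ± 0.08, adjusted p = 0.0154). Of all tested genes 7.61% were higher and 5.16% lower. With upper-quartile factors the calls of all genes in this comparison were 915 higher and 897 lower in place of 1060 and 719. The call of Il21r was lost when IL-4 replicate 1 or 3 or any of the 3 IL-13 libraries was left out (−0.26 to −0.35) and in a fit of the compared groups only (−0.34), and that of Jak2 without IL-4 replicate 2 or 3 (−0.32 and −0.33).

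The difference between the effect of IL-6 on top of IL-13 and that on top of IL-4 was tested as an interaction. It passed for 2 members, both with the smaller rise on top of IL-13, whereas 3.22% of all tested genes were lower and 4.42% higher in this test. For Il4ra it was −1.08 ± 0.10 (log2, edgeR quasi-likelihood test, adjusted p = 3.21e-06) and for Jak2 −1.11 ± 0.12 (adjusted p = 1.08e-05). Both kept the call under all 21 alternatives, with values between −1.16 and −0.99 for Il4ra and between −1.18 and −1.03 for Jak2. The other 7 members had differences between −0.44 (Il4) and 0.49 (Il13ra1) that did not pass, and that of Il21r (0.36) passed without IL-4/IL-6 replicate 1 (0.47). With upper-quartile factors the calls of all genes in this test were 757 higher and 352 lower in place of 616 and 449.

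Of 21 other genes of IL-4 and IL-13 signalling, 19 were tested. Il13 had at most 4 counts in a library and Irs1, an adaptor of the pathway, at most 6. In IL-4 over control 3 of the 19 rose and 13 fell, and in IL-13 over control 4 rose and 12 fell. Among all tested genes 32.1% were higher and 35.9% lower in the first of these comparisons and 29% and 31.1% in the latter. The rises were led by the feedback inhibitors Socs1 (log2 fold change 5.16 ± 0.20 in IL-4 and 3.33 ± 0.22 in IL-13) and Cish (3.82 ± 0.33 and 1.77 ± 0.41) and by the docking protein Dok2 (3.46 ± 0.09 and 3.11 ± 0.09). The falls were led by Socs3, the inhibitor of gp130 receptors (−2.36 ± 0.20 and −2.77 ± 0.21). Next were Stat3 (−1.20 ± 0.08 and −0.90 ± 0.08) and the phosphatase gene Ptpn1 (−0.97 ± 0.06 and −0.96 ± 0.06). All these passed the edgeR quasi-likelihood test, with adjusted p of at most 0.00132. Stat6, the factor downstream of the receptors, differed from control by 0.03 ± 0.07 in IL-4 (adjusted p = 0.698) and by 0.22 ± 0.07 in IL-13 (adjusted p = 0.0113). Cish had between 3 and 9 counts in the control libraries, and Socs1 between 16 and 20.

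IL-6 on top of IL-4 raised 9 of these 19 genes and lowered 7, and on top of IL-13 it raised 7 and lowered 2. The shares of all tested genes were 20.7% higher and 18.7% lower on top of IL-4, a balance that upper-quartile factors turned, and 12.1% and 13.5% on top of IL-13. Socs3 stood out in size, with a log2 fold change of 6.25 ± 0.18 over IL-4 and 6.39 ± 0.18 over IL-13 (edgeR quasi-likelihood test, adjusted p = 3.99e-14 and 9.82e-14), from a normalized CPM of 1.69 ± 0.49 (SD, n = 3) to 129 ± 12.5 and from 1.27 ± 0.34 to 107 ± 2.35. Stat3 rose by 1.72 ± 0.08 and 1.63 ± 0.08 (adjusted p = 1.51e-11 and 5.60e-11). On top of IL-4, the other changes named by size were Cish at 0.76 ± 0.22, the phosphatase gene Ptpn6 at −0.74 ± 0.07 and the lipid phosphatase gene Inpp5d at 0.66 ± 0.09 (adjusted p = 0.00944, 2.15e-07 and 1.45e-05). On top of IL-13 they were Ptpn1 at 0.74 ± 0.06, the adaptor gene Gab2 at 0.52 ± 0.11 and the PI3K subunit gene Pik3cd at 0.43 ± 0.10 (adjusted p = 1.10e-07, 0.00219 and 0.00393). Ptpn6 (−0.29) and Inpp5d (0.37) were also called on top of IL-13, and Ptpn1 (0.33) and Pik3cd (0.46) on top of IL-4. Cish on top of IL-13 (0.06) and Gab2 on top of IL-4 (0.19) were not called. Stat6 fell by 0.37 ± 0.07 on top of IL-4 (adjusted p = 0.000421) and differed by −0.14 ± 0.07 on top of IL-13 (adjusted p = 0.161). The median of the 19 genes was 0.19 over IL-4 and 0.06 over IL-13, beside 0.04 and 0.01 for all tested genes.

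**Figure D5:**
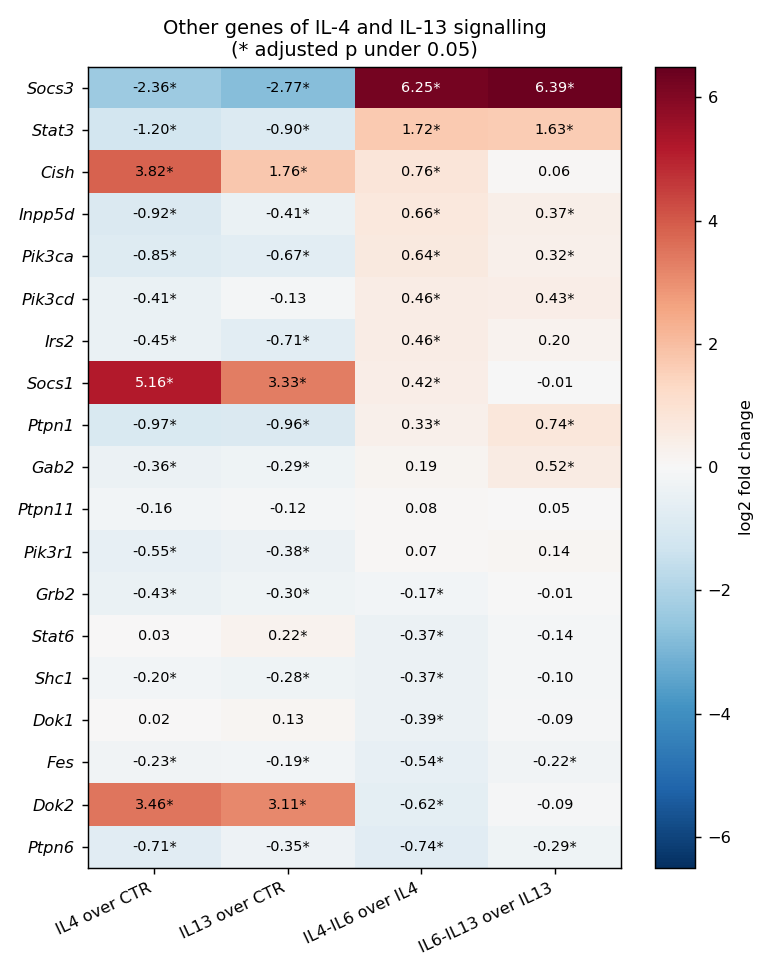
Log2 fold changes (colour and number, with an asterisk for an adjusted p under 0.05) of the 19 tested genes of IL-4 and IL-13 signalling in 4 comparisons, ordered by IL-4/IL-6 against IL-4. Socs3 was lowered by IL-4 or IL-13 alone and reached 6.25 and 6.39 with IL-6, and Socs1 was raised by IL-4 (5.16) and IL-13 (3.33).

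The feedback inhibitors also differed between the cytokines without IL-6. Cish and Socs1 were lower in IL-13 than in IL-4 by −2.05 ± 0.27 and −1.83 ± 0.15 on the log2 scale (edgeR quasi-likelihood test, adjusted p = 4.39e-05 and 1.43e-07), at the doses given above. In that comparison 3 of the 19 genes were higher and 3 lower in IL-13, beside 7.61% and 5.16% of all tested genes. In the interaction test 4 of the 19 passed (Dok2, Ptpn6, Ptpn1 and Fes, between 0.32 and 0.53) and 0 were lower, beside 4.42% and 3.22% of all tested genes. Over control, 5 of the 19 were higher and 10 lower in IL-4/IL-6, led by Socs1 (5.58 ± 0.20), and 6 were higher and 7 lower in IL-13/IL-6, led by Socs3 (3.62 ± 0.14). Among all tested genes 35.4% were higher and 37.5% lower in the first of these and 31.9% and 32.1% in the latter.

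The common gamma chain also serves receptors for other interleukins, and 4 of 10 further genes of that family were tested. Il7r, the partner chain for IL-7, was the most abundant, with an FPKM of 69.2 ± 1.62 (SD, n = 3) in control, 40.6 ± 0.75 in IL-4, 20.2 ± 1.49 in IL-4/IL-6, 45.5 ± 3.80 in IL-13 and 25.4 ± 1.04 in IL-13/IL-6. It fell with IL-6, by 0.91 ± 0.06 (log2) over IL-4 and by 0.77 ± 0.06 over IL-13 (edgeR quasi-likelihood test, adjusted p = 3.72e-09 and 5.47e-08), the direction opposite to that of Il21r. In IL-4 over control 3 of the 4 fell (Il15ra by 0.97, Il7r by 0.72 and Il15 by 0.68 on the log2 scale) and Il7 rose (1.55), and in IL-13 over control 2 fell (Il15ra by 0.66 and Il7r by 0.58). Of all tested genes 35.9% fell and 32.1% rose in the first and 31.1% and 29% in the latter, and with no filter on low counts the number of this list called in IL-13 over control was 4 in place of 2. Il15ra and the cytokine genes Il15 and Il7 did not pass in either IL-6 comparison. The number called of these 4 genes went from 1 to 2, both lower, without IL-4/IL-6 replicate 2 in either IL-6 comparison, and on top of IL-13 also without IL-4/IL-6 replicate 1 and in a fit of the compared groups only. Among all tested genes 20.7% were higher and 18.7% lower with IL-6 on top of IL-4, and 12.1% and 13.5% on top of IL-13. The 6 genes not tested (Il2ra, Il2rb, Il9r, Il2, Il9 and Il21) had at most 13 counts in a library.

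The genes whose log2 CPM over the 15 libraries was most like that of each member are given as a description, since the libraries share the 5 treatments. For Il4ra they were Nxpe5, Mfsd1 and Bmp2k (Pearson r of 0.99, 0.99 and 0.98), and for Jak3 Sbno2, Nxpe5 and Nacc2 (0.99, 0.98 and 0.98). For Il21r they were Socs3, Slc11a2 and Arid5a (0.99 each), and for Il4 Car13, Arid5a and Gpr146 (0.98, 0.97 and 0.97). For Il13ra1 they were Tmem170b, Serinc5 and Cyb561a3 (0.98 each), for Il2rg Cracr2b, Cd1d1 and Rac2 (0.96, 0.96 and 0.94), and for Tyk2 Zmiz2, Smg6 and Foxk1 (0.98 each). For Jak2 they were Dlat, Snx9 and Jcad (0.98 each), and for Jak1 Slc26a2, Ranbp2 and Phactr4 (0.97, 0.97 and 0.96).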

How the data were processed

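RNA of BMDMs was sequenced in 15 libraries, in 5 groups of 3, with 17001352 to 18918686 counts each. Per the labels and the study's methods the groups differ in the cytokines added, and the study calls the replicates biological. The study says in general that its data come from at least 3 independent experiments. Whether these libraries were separate animals or cultures is not stated in the sources used here, so p-values measure the spread between them. The authors deposited raw counts per gene, as whole numbers, for 53465 Ensembl genes, and FPKM values that equal these counts divided by the length of the gene and the total of its library. The submitters' processing notes name GRCm38, CASAVA, Bowtie2 2.2.3, HISAT2 2.1.0, TopHat2 and DESeq2, without roles, and the counting tool and its use of strand are not given in the sources used here, so reads of a gene and an antisense partner cannot be told apart.

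Counts of all 15 libraries were fitted in one edgeR 4.0.16 model (R 4.3.3) with TMM factors and filterByExpr (minimum count 10), and each of 8 contrasts was put through the quasi-likelihood F-test with Benjamini-Hochberg adjustment over 13938 genes. Genes with an adjusted p under 0.05 were called. The script was tested on simulated data. The standard error is the absolute log2 fold change divided by the square root of F. Ratios of FPKM were compared with exact permutation tests. Alternatives were DESeq2 1.42.0, upper-quartile factors, other filters, a replicate block, fits of the compared groups only, a ratio of raw counts, and the omission of each library.

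The members and the lists were chosen with earlier results of these data known. All 10 members are named in every group, with up to 5 called genes per contrast and list by absolute log2 fold change, Stat6 and Il13, and for each tested member the 3 genes most like it over the libraries (log2 CPM with a prior count of 2).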

Additional observations from a re-analysis of the deposited data

Results flagged for a closer look

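The response to IL-6 differed between the cytokines for Il4ra and Jak2 by the interaction test of edgeR, with Benjamini-Hochberg adjustment. The effect of IL-6 on top of IL-13 minus that on top of IL-4 was −1.08 on the log2 scale for Il4ra (adjusted p = 3.21e-06) and −1.11 for Jak2 (adjusted p = 1.08e-05). All 3 libraries with IL-6 were above all 3 without it for both genes and under both cytokines. IL-4 was given at 10 ng/ml and IL-13 at 40 ng/ml, and the part of the dose was not tested. IL-4/IL-6 replicate 2, which stood apart in that group, and IL-13 replicate 1 were each left out in turn, and both calls remained.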

How the results depend on the processing

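Of 1512 values of the members under the alternatives, 1464 kept their direction and their side of the threshold, 30 lost the call, 13 gained it, and 5 changed sign, none of these 5 called. Jak1 in IL-13/IL-6 over control was 0.011 with no filter on low counts and between −0.098 and 0.018 when a library was left out. Its interaction value was between −0.12 and 0.0030 and that of Tyk2 between −0.082 and 0.15 when a library was left out, with a sign unlike that of all libraries without IL-4/IL-6 replicate 3 for Jak1 and without IL-4 replicate 1 or IL-4/IL-6 replicate 2 for Tyk2. The cause was not tested.

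The number of members called stayed within 1.5 times that given above except in IL-13 over IL-4, where it was between 1 and 3 when a library was left out, with the lowest value without IL-4 replicate 3. On the scale of raw counts, which leaves out gene length, the ratio of Il2rg to Il13ra1 was 1.01 in control, 6.59 in IL-4, 4.03 in IL-4/IL-6 and 2.50 in IL-13/IL-6. In IL-13 the counts behind it were 353, 309 and 270 for Il2rg and 53, 90 and 66 for Il13ra1. Leaving out gene length changes the ratio by the same factor in every group, IL-13 included.

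A pairing of the libraries by replicate number was not seen. Of 30 pairs of equal number, 3 had a correlation of deviations over 0.1, and 3 of 15 libraries were closest to one of their own number. This check cannot exclude that libraries of equal number shared an animal or a culture. With the replicate block, 7 members were called with IL-6 on top of IL-4 and 6 with IL-6 on top of IL-13, as many as without it, and no count of members called changed. Depth limits Il13ra2, Il13 and, with 24 to 167 counts, the precision of Il4.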
